A study of Monodelphis domestica with 6 samples.

Results

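The genes described here mark the neural crest and the melanoblasts that arise from it. They were chosen by name, after the change from skin fibroblasts to reprogrammed cells had been seen in the same libraries, as a list of 10: the transcription factors SOX10, PAX3, TFAP2A and MITF, the receptors KIT, EDNRB, NGFR and ERBB3, and the melanosome proteins DCT and GPR143. Of these, 8 of the 10 had a row among the 35665 genes, and SOX10 and ERBB3 were not analysed here. Because the list was chosen on the comparison of reprogrammed cells with fibroblasts, its values in that comparison are given as a description, with no p-value, and the number of members past the calling rule supports nothing about them.

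RNA was sequenced from cells of Monodelphis domestica, a laboratory opossum and thus a marsupial. The parental cells were neonatal skin fibroblasts (neoSFs) from 2 inbred strains, FD2M1 and LSD1, grown for 3 to 4 passages, and there was 1 neoSF library per strain. The reprogrammed cells (monoiPSCs) were made from these neoSFs with episomal plasmids that carry human OCT4, SOX2, NANOG, KLF4, LIN28 and cMYC, and were grown without feeder cells in a medium with LIF and bFGF. There were 4 monoiPSC libraries, from a line of each strain, each at passage 15 and passage 25. All cells were labelled wild type, the neoSFs untreated. Each strain was therefore represented by 1 fibroblast culture and 1 line, and the passages of a line are not independent lines. The labels do not say how many pups gave each culture, and p-values measure only the spread between these libraries.

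The neural crest is a migratory cell population of the vertebrate embryo that leaves the border of the neural plate and forms melanocytes, Schwann cells, peripheral neurons and much of the face. In the melanocyte branch, PAX3 and SOX10 act on the gene for MITF, the transcription factor that drives pigment genes, and the receptor tyrosine kinase KIT and the endothelin receptor EDNRB are needed for melanoblasts to survive and migrate. Melanoblasts express DCT, an enzyme of the melanin pathway, before they make pigment.

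The total count was 14278800 and 16983000 in the neoSF and from 28684800 to 35564300, to 6 digits, in the monoiPSC libraries. Levels are given as normalized read count (NRC), the deposited count scaled by 1 factor per library, and 3 counts correspond to an NRC of 4.75 and 5.85 in the neoSF and 1.55 to 1.88 in the monoiPSC libraries. NRC is not scaled for gene length, so levels are compared between libraries and not between genes. The neoSF libraries were read in-house with short single-end reads and the monoiPSC libraries by a sequencing service with longer paired-end reads, so platform and cell type cannot be told apart. The labelled cell types matched their markers: all 8 measured pluripotency markers were higher in monoiPSCs, and of 10 measured fibroblast markers 9 were lower and FBLN1 was higher by 3.94 ± 0.29 (SE) on the log2 scale. In bulk RNA, fewer cells of a type and less RNA per cell cannot be told apart.

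DCT, NGFR, KIT, EDNRB, PAX3 and GPR143 were higher in all 4 monoiPSC libraries than in both neoSF libraries, TFAP2A was lower in all 4, and MITF overlapped between the groups. Genes were called at an adjusted p of at most 0.05 in edgeR's quasi-likelihood test and a fold change of at least 2. By this rule 7 of the 8 members were called, 6 higher and 1 lower, where 45.9% of the 13072 tested genes were called, 24.3% higher and 21.6% lower. Over all tested genes, 36.1% had all monoiPSC libraries above both neoSF libraries and 37.1% had them all below. The member counts follow from the choice of the list. All 8 members passed the expression filter, an NRC of 20 or more throughout the neoSFs or throughout the monoiPSCs, but PAX3, KIT, NGFR, DCT and GPR143 passed only through the monoiPSCs and TFAP2A only through the neoSFs. MITF and EDNRB passed through both.

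**Figure D1:**
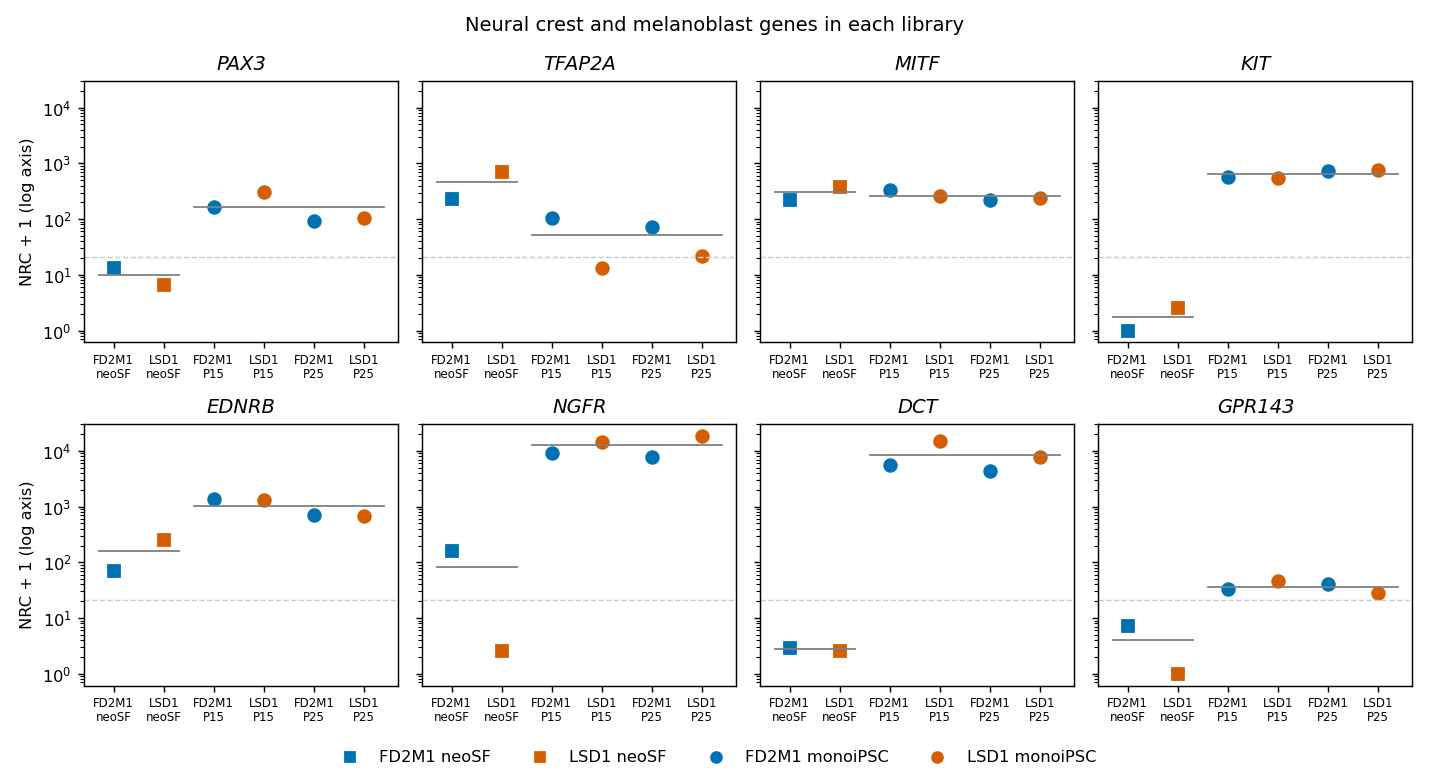
NRC plus 1 on a log axis in each of the 6 libraries for the 8 measured members, with squares for neoSFs, circles for monoiPSCs, colour for the strain, a grey bar for the mean of each group and a dashed line at an NRC of 20. DCT and KIT lay near 0 in both neoSF libraries and far above the dashed line in all monoiPSC libraries, MITF overlapped between the groups, TFAP2A lay below its neoSF values in all monoiPSC libraries, and NGFR differed between the neoSF libraries.

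Among the transcription factors, PAX3, a paired-box factor of the neural plate border, had an NRC of 12.4 in the FD2M1 and 5.54 in the LSD1 neoSFs. In monoiPSCs it had 167 in the FD2M1 line at passage 15, 307 in the LSD1 line at passage 15, 89.7 in the FD2M1 line at passage 25 and 102 in the LSD1 line at passage 25. All 4 monoiPSC values exceeded both neoSF values, and the passage 15 libraries lay above those of passage 25. The log2 fold change of PAX3 was 4.31 ± 0.76 (SE), from a mean NRC of 8.95 ± 4.82 (SD, n = 2) to 166 ± 99.6 (SD, n = 4).

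TFAP2A, an AP-2 factor that acts in the neural crest and in surface ectoderm, went the other way. Its NRC was 231 in the FD2M1 and 701 in the LSD1 neoSFs. The FD2M1 line had 102 at passage 15 and 72.4 at passage 25, and the LSD1 line had 12.5 at passage 15 and 20.4 at passage 25. The groups did not overlap, and the strain with the higher neoSF value had the lower monoiPSC values at both passages. The log2 fold change was -3.08 ± 0.81 (SE), and it was -2.05 without the LSD1 neoSF library, where TFAP2A was no longer called, and -3.66 without the FD2M1 neoSF library.

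MITF, the factor that gives the melanocyte lineage its identity, had a neoSF NRC of 223 in FD2M1 and 382 in LSD1. In monoiPSCs its NRC was 338 and 222 in the FD2M1 line at passages 15 and 25, and 255 and 236 in the LSD1 line. The groups overlapped, and both sets of libraries lay well above the expression threshold. MITF had a log2 fold change of -0.11 ± 0.30 (SE) and was the member that was not called. Without the LSD1 neoSF library the value was 0.36, and without the FD2M1 neoSF library it was -0.44. The counts are per gene, so the melanocyte form of MITF, which starts at its own promoter, was not separated from the forms of other tissues.

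Among the receptors, KIT, which binds the stem cell factor KITLG, was close to undetected in neoSFs. The FD2M1 neoSF library had 0 counts of KIT and the LSD1 neoSF library 0.98. The FD2M1 line had an NRC of 571 at passage 15 and 739 at passage 25, and the LSD1 line 539 and 752. The 4 monoiPSC libraries lay close together, with a mean of 650 ± 111 (SD, n = 4), and a highest value 1.40 times the lowest. With 1 rounded count in the neoSFs together, the ratio of monoiPSCs to neoSFs was 744, with a 95% counting interval of 133 to 29374 (exact Poisson). This interval, like those below, covers counting error only.

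EDNRB, the receptor for endothelins that melanoblasts and enteric crest cells carry, was measured in both groups. Its neoSF NRC was 68.9 in FD2M1 and 253 in LSD1. In monoiPSCs it was 1380 and 1300 at passage 15 in the FD2M1 and LSD1 lines, and 706 and 674 at passage 25. The lines were almost level at each passage, whereas the LSD1 neoSF value was 3.67 times the FD2M1 value. The log2 fold change was 2.74 ± 0.60 (SE), with 2.11 when the FD2M1 neoSF library was left out and 4.01 when the LSD1 neoSF library was left out.

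NGFR, the low-affinity neurotrophin receptor that is used to sort neural crest cells, was detected in the neoSFs of 1 strain. The FD2M1 neoSF library had an NRC of 158 from 81.2 counts, and the LSD1 neoSF library 1.58 from 1 count. The FD2M1 line had 9307 at passage 15 and 7780 at passage 25, and the LSD1 line 14617 and 18410. All monoiPSC libraries lay far above both neoSF libraries, and the strain that was near 0 as neoSF was the higher strain as monoiPSC. The log2 fold change of 7.44 ± 1.27 (SE) thus rested on unlike neoSF values, with 6.43 when LSD1 neoSF was left out and 12.98 when FD2M1 neoSF was left out. Of all counts, NGFR took 0.0521% and 0.0432% in the FD2M1 line and 0.0848% and 0.100% in the LSD1 line.

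Among the melanosome proteins, DCT (dopachrome tautomerase) had 1 count in each neoSF library, an NRC of 1.95 in FD2M1 and 1.58 in LSD1. Its NRC was 5608 at passage 15 and 4372 at passage 25 in the FD2M1 line, and 15279 and 7858 in the LSD1 line. The LSD1 line was higher at both passages, and the neoSF and monoiPSC values were far apart. The ratio of monoiPSCs to neoSFs was 4735, with a 95% counting interval of 1311 to 39101, and DCT took 0.0243% to 0.0887% of all counts in the monoiPSC libraries.

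GPR143, the ocular albinism receptor of the melanosome membrane, was low throughout. It had an NRC of 6.18 in the FD2M1 neoSFs, from 3.17 counts, and 0 counts in the LSD1 neoSFs. The monoiPSC values were 32.3 and 39.0 in the FD2M1 line and 44.5 and 27.1 in the LSD1 line, at passages 15 and 25. These were above both neoSF libraries, and all were within 1.65-fold of each other. The ratio was 13.6, with a 95% counting interval of 4.66 to 66.0.

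The comparison of passages asked whether the members kept their level between passage 15 and passage 25, with the line as a covariate. The list was not chosen on this comparison. None of the 7 members tested was called in edgeR, DESeq2 or limma, although 3 had an unadjusted p under 0.05 in edgeR, and of all 12252 genes tested 0% were called by edgeR. An unadjusted p under 0.05 was reached by 1145 genes, DESeq2 called 119 and limma 0. TFAP2A was not tested, because its NRC was under 20 in the LSD1 line at passage 15. With 1 residual degree of freedom per gene, small differences were not detectable.

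EDNRB was lower at passage 25 in both lines, at 0.511 times the passage 15 value in FD2M1 and 0.519 times in LSD1. Its log2 difference was -0.97 ± 0.16 (SE; edgeR adjusted p = 0.189). The 2 lines gave almost the same ratio, but the adjusted p did not pass the threshold, and DESeq2 gave an adjusted p of 0.00965 with a fold just under 2. PAX3 was also lower at passage 25 in both lines, at 0.538 and 0.331 times, with a log2 difference of -1.26 ± 0.33 (SE; edgeR adjusted p = 0.372). In size, the PAX3 difference was larger than that of 98.9% and the EDNRB difference larger than that of 97.1% of the tested genes.

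DCT was at 0.780 times its passage 15 value in the FD2M1 line and 0.514 times in the LSD1 line, a log2 difference of -0.67 ± 0.19 (SE; edgeR adjusted p = 0.413). KIT was higher at passage 25 in both lines, by 1.29 and 1.40 times, with a log2 difference of 0.41 ± 0.18 (SE; edgeR adjusted p = 0.548). The lines went opposite ways for NGFR, with ratios of 0.836 in FD2M1 and 1.26 in LSD1, and for GPR143, with 1.21 and 0.608. MITF had ratios of 0.655 and 0.923. None of these differences passed the threshold.

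**Figure D2:**
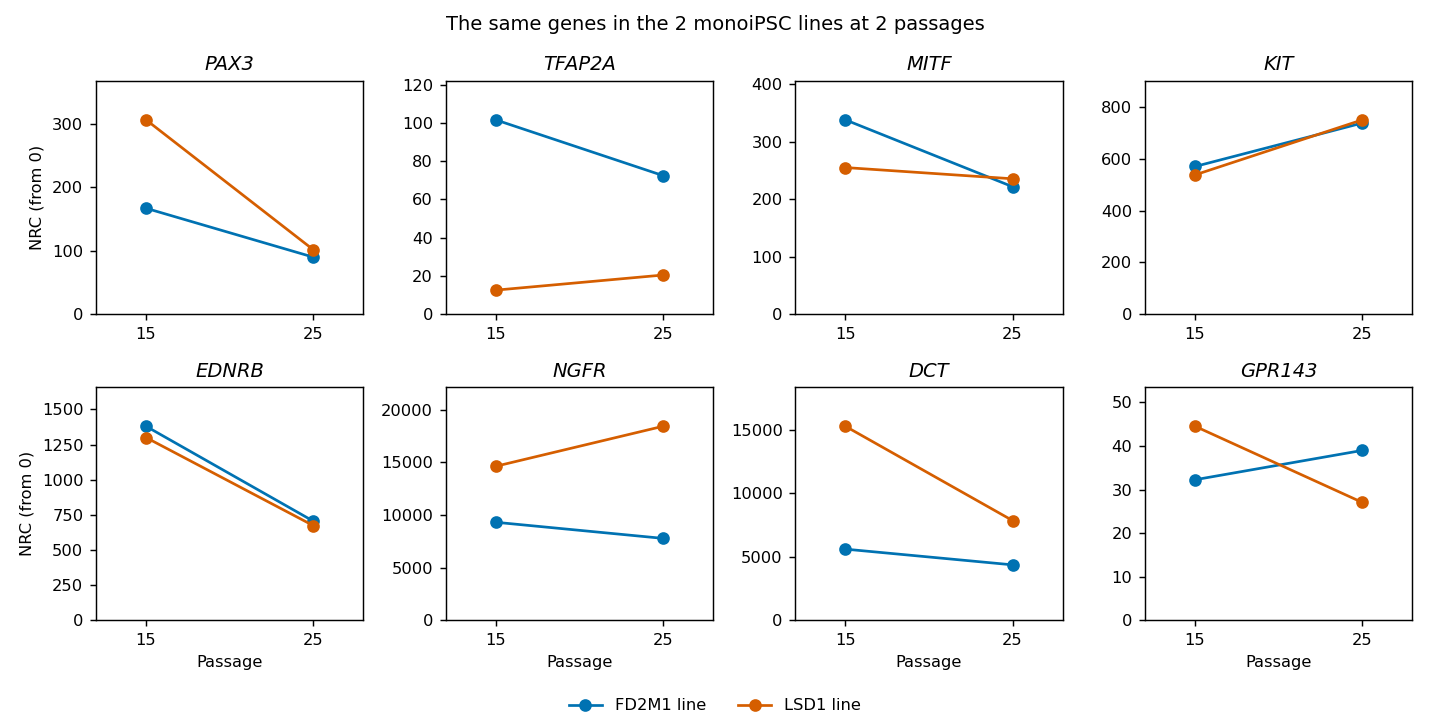
NRC, on axes that start at 0, of the 8 members in the FD2M1 and LSD1 monoiPSC lines at passages 15 and 25, with 1 point per library. EDNRB lay lower at passage 25 in both lines by nearly the same ratio, KIT lay higher at passage 25 in both, and NGFR and DCT lay higher in the LSD1 line at both passages.

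The comparison of the LSD1 with the FD2M1 line, with passage as a covariate, called none of the 7 members in edgeR, 2 of which had an unadjusted p under 0.05, and again 0% of the 12252 genes in edgeR. An unadjusted p under 0.05 was reached by 1736 genes, DESeq2 called 191 and limma 0. DCT was 2.72 times higher in the LSD1 line at passage 15 and 1.80 times at passage 25, with a log2 difference of 1.15 ± 0.19 (SE; edgeR adjusted p = 0.136). DESeq2 called DCT, the 1 member it called between lines. NGFR was 1.57 and 2.37 times higher in the LSD1 line, with a log2 difference of 0.95 ± 0.17 (SE; edgeR adjusted p = 0.141).

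The other tested members had smaller differences between lines than DCT and NGFR. PAX3 was 1.84 times higher in LSD1 at passage 15 and 1.13 times at passage 25, with a log2 difference of 0.54 ± 0.33 (SE; edgeR adjusted p = 0.504). The log2 differences of KIT, EDNRB, GPR143 and MITF lay between -0.16 and -0.01, with standard errors of 0.16 to 0.44. TFAP2A, which was outside the test, was 8.15 times higher in the FD2M1 line at passage 15 and 3.56 times at passage 25.

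The interaction of strain and cell type asked whether the change from neoSF to monoiPSC differed between strains. Each strain had 1 neoSF library, so the spread came from the passages of the lines, which are not independent lines, and the neoSF libraries were assumed to vary as much. The p-values of this comparison therefore do not measure the variation between neoSF cultures of a strain, and a difference between strains cannot be told apart from a difference between these 2 cultures. Of 13072 genes, 11 were called, which is 0.0841%, all with the change shifted upward in LSD1 relative to FD2M1 and with the lower neoSF value in LSD1. An unadjusted p under 0.05 was reached by 1193 genes, DESeq2 called 306 and limma 0. NGFR was the member among the 11. Its change was larger in LSD1 by 7.49 ± 0.65 (SE) on the log2 scale (edgeR adjusted p = 0.0403), and the FD2M1 monoiPSC values were 58.8 and 49.1 times the FD2M1 neoSF value. The LSD1 monoiPSC values were 9228 and 11623 times the single LSD1 neoSF count, with 95% counting intervals of 1656 to 364504 and 2086 to 459097. The adjusted p was 0.0515 without the FD2M1 library at passage 25 and 0.0977 with limma, so this call rested on the choice of test and libraries. NGFR passed the filter only through the monoiPSCs, and the value rests on a single count in the LSD1 neoSFs.

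Among the other 10 genes were SOX9 and ZIC2 of the border and crest list, named after their values were seen. The NRC of ZIC2 was 524 for FD2M1 and 0.792 for LSD1 neoSFs, and 5051 to 8537 in monoiPSCs (edgeR adjusted p = 0.030). SOX9 differed by 3.93 ± 0.29 (SE; edgeR adjusted p = 0.0311), with 12.5 times more NRC in the FD2M1 than in the LSD1 neoSFs.

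For TFAP2A the interaction was -3.99 ± 0.66 (SE; edgeR adjusted p = 0.168), and DESeq2 called it. The FD2M1 neoSF value was 2.28 and 3.19 times the FD2M1 monoiPSC values, and the LSD1 neoSF value was 56.3 and 34.4 times the LSD1 monoiPSC values. TFAP2A thus lay lower in monoiPSCs in both strains, with the larger ratio in LSD1. The interaction of EDNRB was -1.99 ± 0.84 (SE; edgeR adjusted p = 0.571), with monoiPSC values 20.02 and 10.2 times the neoSF value in FD2M1 and 5.14 and 2.67 times in LSD1. The other members did not pass in edgeR, with adjusted p of 0.596 to 0.951.

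The other genes of the pathway were taken from 6 lists of 105 genes in all, of which 97 had a row and 72 were tested. In monoiPSCs 23 were called higher and 19 lower, 58.3% beside 45.9% of all genes, and their median log2 fold change was -0.19 beside 0.08 for all genes. These lists were written with results of these libraries known, and are described by their counts and medians.

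Of 15 tested ligands and partner receptors, 3 were higher and 7 lower, with a median log2 fold change of -0.17. KITLG, the ligand of KIT, rose from an NRC of 982 in FD2M1 and 325 in LSD1 neoSFs to between 1446 and 2755 in monoiPSCs, a log2 fold change of 1.63 ± 0.47 (SE; edgeR adjusted p = 0.019). It was not called without the LSD1 neoSF library (1.06, edgeR adjusted p = 0.0605), and the number of higher genes on this list was 2 then and 5 without the FD2M1 neoSF library. RNA of both the ligand and the receptor was thus measured in the monoiPSC libraries.

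Of the endothelins, ligands of EDNRB, EDN1 and EDN3 were called lower, and EDN2 was not tested, at an NRC of at most 3.90 in every library. EDN3, the endothelin of melanoblasts and enteric crest, fell from 2415 and 5589 in neoSFs to 60.1 to 130 in monoiPSCs (log2 fold change -5.11 ± 0.41, SE; edgeR adjusted p = 6.6e-05). EDN1 fell from 656 and 827 to 34.7 to 75.2 (-3.77 ± 0.32, SE; edgeR adjusted p = 8.8e-05). EDNRA, the other endothelin receptor, fell by 1.15 on the log2 scale (SE 0.43; edgeR adjusted p = 0.0487), with an FD2M1 neoSF value of 1812 inside the monoiPSC range of 1111 to 2115.

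SORT1 (sortilin), a partner of NGFR, rose by 2.19 ± 0.27 on the log2 scale (SE; edgeR adjusted p = 0.00041), from 224 and 401 in neoSFs to 1175 to 1460 in monoiPSCs. NRG1, the ligand of ERBB3, and ERBB2, which pairs with ERBB3, did not pass, with log2 fold changes of -0.17 ± 0.36 and -0.04 ± 0.16 (SE; edgeR adjusted p = 0.691 and 0.828).

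**Figure D3:**
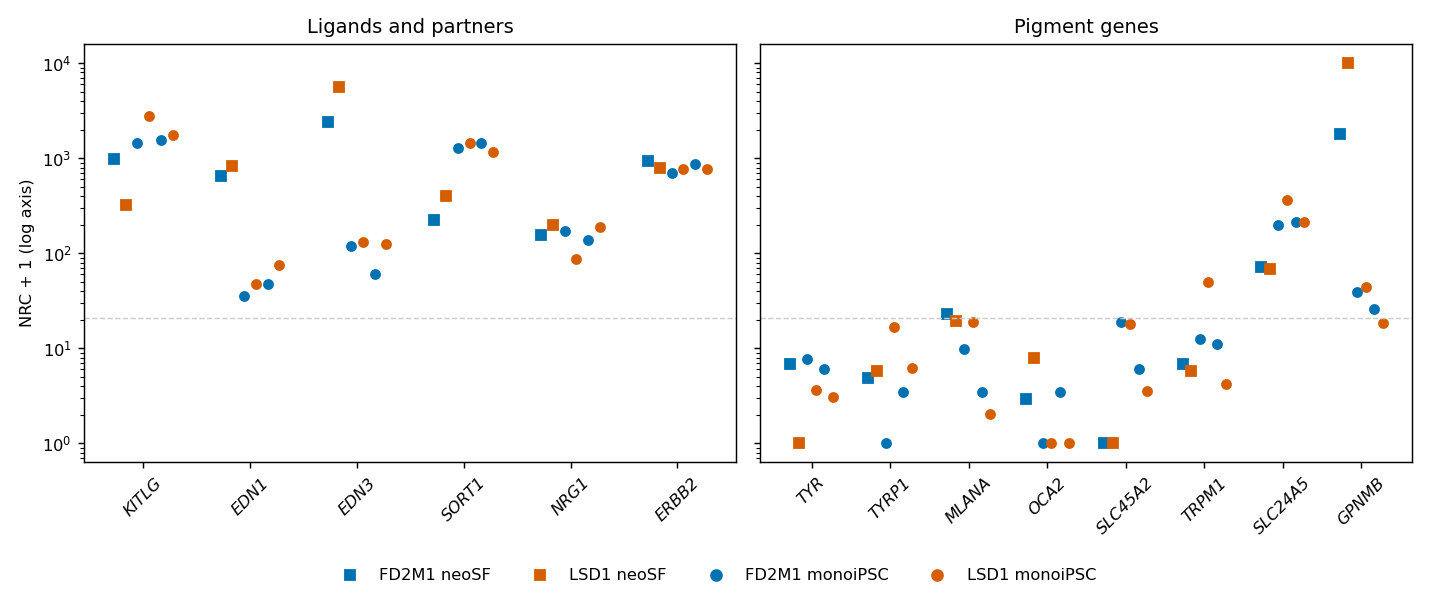
NRC plus 1 on a log axis for ligands and partner receptors (left) and pigment genes (right), with squares for neoSF and circles for monoiPSC libraries, colour for the strain and a dashed line at an NRC of 20. EDN1 and EDN3 lay lower and KITLG and SORT1 higher in all monoiPSC libraries than in both neoSF libraries, while TYR, TYRP1 and OCA2 lay below an NRC of 20 in every library.

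Of 19 tested neural plate border and crest factors, 6 were higher and 7 lower, with a median log2 fold change of -0.55. TFAP2B, an AP-2 factor of neural crest, had neoSF counts of 1 in FD2M1 and 3 in LSD1, and a monoiPSC NRC of 16007 and 7176 in the FD2M1 line and 13231 and 6566 in the LSD1 line (log2 fold change 11.65 ± 0.78, SE; edgeR adjusted p = 3.5e-05). DLX3, a factor of the outer border and surface ectoderm, had 1265 and 638 in neoSFs and 0 counts in all 4 monoiPSC libraries, and was at least 505-fold lower against 3 counts per library (edgeR adjusted p = 0.000186). The AP-2 members of this family thus differed, with TFAP2B higher, TFAP2A lower and TFAP2C at 0.77 ± 0.44 (SE; edgeR adjusted p = 0.16).

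SNAI2, a factor of crest migration that fibroblasts also express, fell by 4.53 on the log2 scale (SE 0.23; edgeR adjusted p = 1.5e-05), from 10541 and 7702 to 281 to 464. SOX9 was called lower at -2.16 ± 0.73 (SE; edgeR adjusted p = 0.0338), but its NRC was 19063 in the FD2M1 and 1519 in the LSD1 neoSFs, and without the FD2M1 neoSF library it turned to 0.60. It was also not called without any 1 of the monoiPSC libraries, with limma or with the strain as a block. FOXD3 had no row and was not analysed here. The number of lower factors dropped to 2 when FD2M1 neoSF was left out, and to 4 when either library of passage 25 was.

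GBX2 and ZIC5, named after their values were seen, are further border factors that rose. Of the other factors of the list that were called lower, ZIC1, of the same family as ZIC5, fell by 5.28 on the log2 scale (SE 1.32; edgeR adjusted p = 0.010). The neoSF values of ZIC1 were unlike, at 2012 in FD2M1 and 111 in LSD1, against 3.09 to 71.0 in monoiPSCs. MSX2 fell by 1.97 on the log2 scale (SE 0.71; edgeR adjusted p = 0.0424), although its LSD1 neoSF value, 45.8, lay below all monoiPSC values. GBX2 had 5.85 and 4.91 in neoSFs and 1074 to 1923 in monoiPSCs (log2 fold change 8.10 ± 0.44, SE; edgeR adjusted p = 1.8e-05). ZIC5 rose by 5.31 ± 0.69 on the log2 scale (SE; edgeR adjusted p = 0.00054).

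Most pigment genes other than DCT and GPR143 were near 0 in all libraries or were not called. Of 25 listed pigment enzymes and melanosome proteins 15 were tested, 1 was higher and 2 were lower, and their median log2 fold change was -0.53. In edgeR 8 of the 15 had an unadjusted p under 0.05. Among those not called, HPS1, LYST, AP3D1 and AP3B1, named after their values were seen, were lower by 0.59 to 0.93 on the log2 scale. Their edgeR adjusted p was 0.0018 to 0.0148, and they fell short of the fold change of 2. Without the expression filter 3 were higher, and without the LSD1 library of passage 25 only 1 was lower. TYR, the enzyme of the first step of melanin synthesis, had an NRC of 5.85 and 0 in the FD2M1 and LSD1 neoSFs and 2.06 to 6.73 in monoiPSCs, from at most 12 counts. TYRP1, which acts beside TYR and DCT, had 3.90 and 4.75 in neoSFs and 0 to 15.8 in monoiPSCs. Both stayed under the filter and were not tested, and their values overlapped between the groups. PMEL, the melanosome matrix protein, had no row.

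SLC24A5, an ion exchanger of pigment cells, was the pigment gene that rose, from 70.3 and 67.9 to 199 to 365 (log2 fold change 1.93 ± 0.36, SE; edgeR adjusted p = 0.0028). GPNMB, a melanosome and lysosome glycoprotein, fell the most, from 1802 and 10065 to 17.4 to 43.6 (-7.48 ± 0.70, SE; edgeR adjusted p = 0.00013). Named after their values were seen, SLC45A2 had 0 counts in both neoSF libraries and an NRC of 2.58 to 18.1 in monoiPSCs, and MLANA had 21.8 and 18.5 in neoSFs and 1.03 to 18.2 in monoiPSCs. Of the 8 measured markers of mature melanocytes, SLC24A5 was the 1 tested, and their summed NRC was 104 and 110 in neoSFs and 225 to 468 in monoiPSCs. SLC24A5 made up most of that sum in every library. TYR, the defining marker, was near 0 in all 6 libraries.

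Of the MITF family and other melanocyte factors, 4 of 8 were tested and none was called in edgeR, 1 (TFE3) having an unadjusted p under 0.05, with a median log2 fold change of -0.71. DESeq2 called 1 of the 4 lower, ALX1, and edgeR called 1 lower with FD2M1 neoSF left out and 1 with no expression filter. TFE3, a relative of MITF, was at -0.74 ± 0.17 (SE; edgeR adjusted p = 0.0068), short of the fold change of 2. Both are named after their values were seen.

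Genes of the other crest derivatives were read from 2 further lists. Of 9 tested genes of the Schwann and glial lineage, 7 were higher and 2 lower, with a median log2 fold change of 3.39. FABP7, a fatty acid binding protein of glia and their precursors, had 7.17 and 2.32 in neoSFs and 7748 to 12579 in monoiPSCs (log2 fold change 11.30 ± 0.55, SE; edgeR adjusted p = 1.3e-05). EGR2, a factor of myelinating Schwann cells, fell from 224 and 133 to 5.26 to 16.1 (-4.24 ± 0.52, SE; edgeR adjusted p = 0.0004). The myelin gene MBP and the Schwann precursor cadherin CDH19, named after their values were seen, rose by 5.74 ± 0.45 and 4.70 ± 0.89 on the log2 scale (SE; edgeR adjusted p = 6.2e-05 and 0.0029). CDH19 had 0 counts in the neoSFs of FD2M1 and an NRC of 42.4 in those of LSD1, against 441 to 675 in monoiPSCs.

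Of 10 tested genes of the sympathetic and enteric lineage, 6 were higher and 1 lower, with a median log2 fold change of 3.27. GATA3, which acts in sympathetic neurons and in skin, fell from 204 and 446 to 8.79 to 54.0 (-3.29 ± 0.73, SE; edgeR adjusted p = 0.0061).

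RET, the receptor of enteric crest for the GDNF family, and PHOX2A, a factor of autonomic neurons, were named after their values were seen. RET rose from 25.0 and 9.24 to 1231 to 2263, a log2 fold change of 6.81 ± 0.47 (SE; edgeR adjusted p = 3.8e-05). PHOX2A had 1 rounded count in the neoSFs together and a ratio of 360, with a 95% counting interval of 64.7 to 14232 (edgeR adjusted p = 0.00023). TH, which makes the catecholamine precursor in mature sympathetic cells, had an NRC of 0.628 to 8.97 over the 6 libraries and was not tested.

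**Figure D4:**
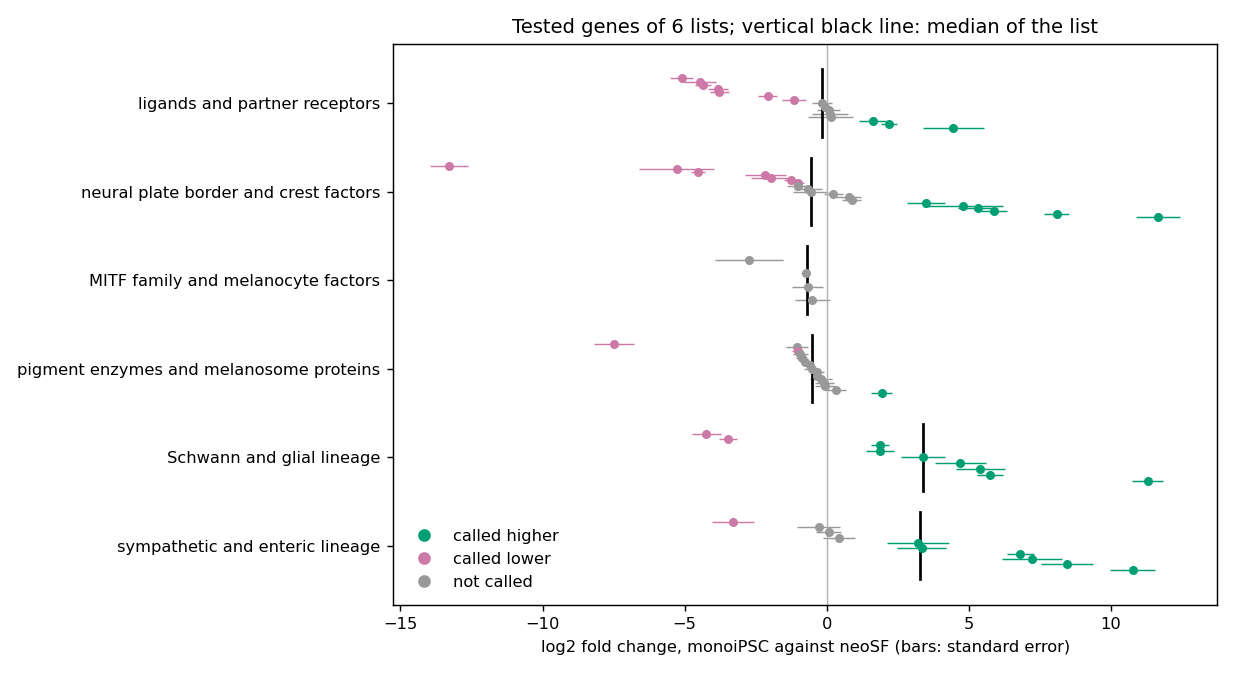
Log2 fold change of monoiPSC against neoSF, with its standard error, for each tested gene of 6 lists, coloured by whether edgeR called it, with a black line at the median of each list. The medians lie at 3.39 for the Schwann and glial and 3.27 for the sympathetic and enteric list, and between -0.71 and -0.17 for the other 4 lists. Fitted values of genes with 0 or 1 count in a group, such as DLX3 and PHOX2A, depend on the prior count, and setting them to their bound or ratio moves no median.

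Markers of other cell types that express some of the members were read beside them, and their part in the result was not tested. Of the markers of the retinal pigment epithelium, which also uses DCT, MITF and GPR143, RAX, OTX2 and TTR had an NRC of at most 3.90 in every library, and RPE65 had 7.34 to 40.2 in monoiPSCs. BEST1 had at most 5.62 in every library. Of the 2 tested, LRAT rose from 63.0 and 58.3 in neoSFs to 132 to 367 (log2 fold change 2.05 ± 0.46, SE; edgeR adjusted p = 0.0063) and RLBP1 fell from 469 and 449 to 15.7 to 68.3 (-3.45 ± 0.50, SE; edgeR adjusted p = 0.00081). The 7 markers summed to 518 and 536 in neoSFs and 196 to 414 in monoiPSCs. Of germ cell markers, since germ cells carry KIT, DAZL had 0 counts in all monoiPSC libraries, DDX4 had 5.26 to 11.3, and the list summed to 229 and 746 in neoSFs and 683 to 1016 in monoiPSCs. Most of that sum was PRDM1 and TFAP2C, neither of which was called. Of the 7 measured migrating crest markers, 6 were tested, 1 was higher and 4 were lower, and their sum was 19404 and 45122 in neoSFs and 14003 to 25842 in monoiPSCs. The higher marker was TFAP2B, at 1.95 and 4.75 in neoSFs and 6566 to 16007 in monoiPSCs, so the sum mixes opposite changes.

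Of 4 tested neural progenitor markers 1 was higher, SOX3 at 6.12 ± 0.57 (log2, SE; edgeR adjusted p = 0.00012), and 1 was lower. The sum of that list was 6280 and 24990 in neoSFs and 4651 to 10918 in monoiPSCs. Nearly all of it was NES, with 6143 and 24777 in neoSFs and 4225 to 10431 in monoiPSCs, which was not called. The sum therefore says little about the other markers of the list. Of 7 keratinocyte markers 3 were measured, and they summed to 56.6 and 156 in neoSFs and at most 7.02 in monoiPSCs. Most of the neoSF sum was DSG3, the 1 tested, at 46.8 in FD2M1 and 148 in LSD1. The 5 measured Schwann cell markers summed to 195 and 242 in neoSFs and 1070 to 1606 in monoiPSCs, with 3 higher and 1 lower of 4 tested.

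The genes most alike in pattern to NGFR and DCT, the members with the highest mean NRC in monoiPSCs, were found by the root mean square difference of log2 profiles over the 6 libraries, each centred on its mean, among 10349 genes. For NGFR they were ZIC2 (0.96), NDRG2 (1.00) and INSM1 (1.05). All had a higher FD2M1 than LSD1 neoSF value, with 524 and 0.792 for ZIC2, 10.7 and 0 for NDRG2, and 9.76 and 0 for INSM1. For DCT they were TFAP2B (0.77), FABP7 (0.94) and CECR2 (1.00), all with an NRC of at most 7.17 in neoSFs. TFAP2B was lower at passage 25 than at passage 15 in both lines, as was DCT, but it was higher in the FD2M1 line, where DCT was lower.

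**Figure D5:**
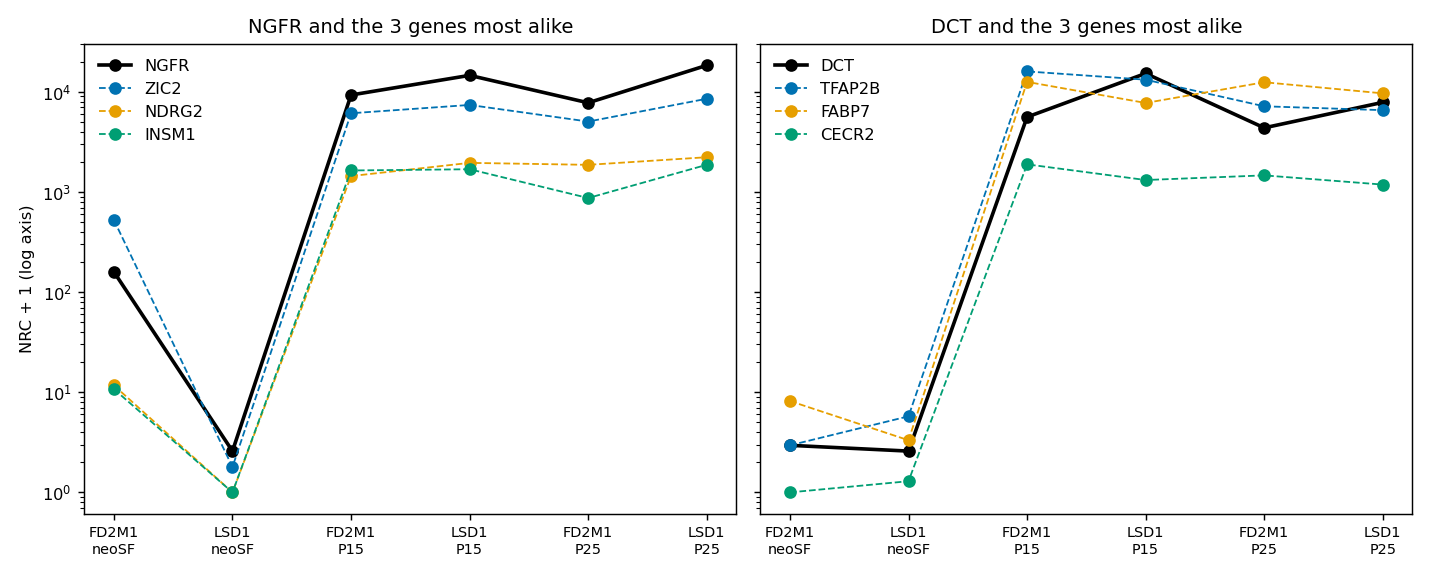
NRC plus 1 on a log axis over the 6 libraries for NGFR (left) and DCT (right), in black, with the 3 genes most alike to each in colour. ZIC2 shared the step between the FD2M1 and LSD1 neoSF libraries with NGFR, and the genes alike to DCT lay at most at an NRC of 7.17 in neoSFs and above 1000 in all monoiPSC libraries.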

How the data were processed

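Reads were aligned by the authors in StrandNGS to the MonDom5 assembly, and counted on RefSeq genes. The deposited raw counts were not whole for 86.8% of values above 0 (tolerance 1e-06), and were taken as estimated counts, rounded for the tests. A second deposited file holds log2 values that the authors made by DESeq normalization, from which each library's factor was read and NRC computed as count times factor. In these log2 values, 1906 values with an NRC under 1 are set to 0. Gene identifiers carry the MonDom5 chromosome. The RefSeq table used for names is of another assembly, mMonDom1.pri, so no coordinates are given, and TFAP2E, TH and KRT14 were matched by gene number.

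Genes that reached an NRC of 20 throughout the neoSFs or throughout the monoiPSCs were tested with edgeR 4.0.16 (glmQLFit and glmQLFTest, TMM scaling, R 4.3.3) and Benjamini-Hochberg adjustment over all of them. For passage and line, the filter was an NRC of at least 20 in all 4 monoiPSC libraries. A standard error is the log2 fold change divided by the square root of F. DESeq2 1.42.0, limma 3.58.1, other scaling, no filter, a strain block, a prior count of 2 and leaving out libraries were alternatives. The scripts were tested on simulated data. The design assumed whole counts, and the same test was kept on the rounded values.

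The members, lists and tests were chosen with earlier results of these data known. Named genes were all members, the highest and the lowest called gene of each list, the ligands and partners of the member receptors, TYR, TYRP1, PMEL, FOXD3, SNAI2, SOX9 and TFAP2B, and the 3 genes most alike to each of the 2 members with the highest mean NRC in monoiPSCs, among genes whose higher group averaged an NRC of 100 or more and whose symbol is no LOC number. Some genes that this rule names are not reported here, and ZIC1, MSX2, EDN2, EDNRA and the single cell type markers were named after their values were seen. Strain pairs the monoiPSCs with the neoSFs they came from. The deviations of the FD2M1 libraries from the group means correlated at 0.045 between neoSFs and monoiPSCs across 13072 genes, which are not independent replicates.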

Additional observations from a re-analysis of the deposited data

Results flagged for a closer look

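The fitted change of NGFR from neoSF to monoiPSC was larger in LSD1 than in FD2M1 by 7.49 ± 0.65 (SE) on the log2 scale, with an interaction term past the threshold (edgeR adjusted p = 0.0403). The spread in this fit came only from the passages of each line, with 1 neoSF library per strain and 1 NGFR count in the LSD1 neoSFs, so the p-value does not establish a difference between strains. The NRC was 158 in the FD2M1 and 1.58 in the LSD1 neoSFs, and 9307 and 7780 in the FD2M1 and 14617 and 18410 in the LSD1 line. The change was upward in both strains. Over the alternatives the adjusted p lay between 0.000101 and 0.0977. No member had a library far from the others among the 4 monoiPSC libraries by Dixon's criterion. With 4 values, from 2 lines at 2 passages, the criterion cannot exclude such a library, and nothing is concluded from it.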

How the results depend on the processing

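Between monoiPSCs and neoSFs, all 8 members kept their direction under each scaling, test, filter, prior count and block tried, and 7 were called under each of the 5 alternative fits. Without the LSD1 neoSF library 6 were called and MITF turned to 0.36. The strain as a replicate block called 3186 genes higher and 2826 lower beside 3176 and 2824, and SOX9 lost its call (-1.72, edgeR adjusted p = 0.133). With this block 6 ligands and partner receptors were called lower beside 7, 5 border and crest factors beside 7, and 3 pigment genes beside 2. The calls of EDNRA, MSX2 and ZIC1 were not followed singly under the alternatives. With DESeq2, 119 genes were called between passages, 191 between lines with 1 member, and 306 for the difference between strains with 2 members. With limma, 0 genes and 0 members were called for that difference, and without the filter 35 genes. Without a covariate, the line difference of GPR143 was 0.019.

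Leaving out 1 library at a time, with the covariate dropped for passage and line, gave 0 to 221 genes between passages (221 without FD2M1 and 11 without LSD1 at passage 25), 0 to 46 between lines (46 without LSD1 at passage 15 and 6 without LSD1 at passage 25), and 9 to 95 genes and 0 to 1 members for the difference between strains (95 without LSD1 at passage 15 and 42 without LSD1 at passage 25). No member was called between passages or lines in these fits. The log2 values that changed sign ranged from -0.13 to 0.087 for ERBB2, -3.03 to 0.60 for SOX9 and -0.33 to 0.037 for NRG1. Between passages they ranged from -0.63 to 0.59 for NGFR, -1.33 to 0.13 for DCT and -0.53 to 0.030 for GPR143. Between lines they ranged from -0.46 to 0.15 for MITF, -0.62 to 0.49 for EDNRB, -0.33 to 1.28 for PAX3, -0.26 to 0.20 for KIT and -0.38 to 0.35 for GPR143. In the passage and line fits with 1 library left out and no covariate, passage and line were not balanced. A difference between lines thus cannot be told apart from one between passages, in the log2 values and in the numbers of genes of those fits. The cause of the sign changes was not tested. The strain difference could not be fitted without a neoSF library. Folds of KIT, DCT and GPR143 are limited by 1 to 3 counts in neoSFs, and KIT moved from 9.49 to 8.19 (log2) with a prior count of 2.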

Other observations

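Beside NGFR, SOX9 and ZIC2, the genes with a called difference between strains included the type IX collagen genes of cartilage. COL9A1 had an NRC of 2079 in the FD2M1 and 5.28 in the LSD1 neoSFs and 1237 to 1965 in monoiPSCs. COL9A3 had 4992 and 38.3 in neoSFs and 3336 to 5192 in monoiPSCs, and COL9A2 had 817 and 28.8 in neoSFs and 1359 to 1607 in monoiPSCs. Their differences between strains were 8.11 ± 0.40, 7.21 ± 0.55 and 4.96 ± 0.34 on the log2 scale (SE; edgeR adjusted p = 0.0152, 0.0311 and 0.0311). The Wnt pathway genes FZD9, a receptor, and SFRP1, a secreted inhibitor, had 1037 and 1205 in the FD2M1 and 74.4 and 38.8 in the LSD1 neoSFs (edgeR adjusted p = 0.0311 for both). In all 5 genes the LSD1 neoSF value was the lowest of the 6 libraries. They were named after their values were seen, and with 1 neoSF library per strain the p-values do not measure the variation between neoSF cultures.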
